A study of Bos taurus with 30 samples.

Results

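The corpus luteum was compared 24 h and 4 h after an injection of prostaglandin F2α (PGF2α) on day 11 of the estrous cycle, in Angus crossbred heifers. The comparison uses 10 of the 30 arrays of the study, 5 titled as 24 h and 5 as 4 h after PGF2α on day 11, and all 24016 probe sets on them that are not control probe sets. Total RNA of each gland was labelled as biotinylated cRNA and hybridised to a 1-colour Affymetrix bovine array, and the deposited values are log2 intensities. The other 20 arrays were glands of day 11 heifers given saline (0 h), and of day 4 heifers given saline or PGF2α 4 h or 24 h before. The day 11 saline levels are given only as a reference without a test, and the day 4 arrays serve for the difference between the cycle days. All 30 arrays entered the fit, so the spread behind each day 11 p-value also comes from these other arrays. Each array is labelled as a sample of its own, and no heifer is named for it. The p-values therefore measure the spread between these samples.

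PGF2α is the hormone that ends the life of the corpus luteum, the ovarian gland that makes progesterone. It acts through the receptor PTGFR on luteal steroidogenic cells and, through these and the vessels, progesterone output falls before the tissue itself is dismantled by immune cells, proteases and cell death. In cattle a gland in the middle of the cycle regresses after PGF2α, whereas a gland in the days after ovulation resists it.

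All arrays carried the defining transcripts of luteal tissue. At 4 h the mean log2 levels were 13.35 for STAR, 13.32 for CYP11A1, 13.40 for HSD3B1 and 13.66 for oxytocin, which is made by large luteal cells. Replicate 1 of the 4 h group stood apart in quality. Its 3′ to 5′ log2 difference for the EF1A control was -1.40, against -2.46 to -2.28 on the other 4 h arrays, its eIF-4E difference was 4.47 against 2.95 to 3.30, and its median over all probe sets was 6.01 against 6.07 to 6.08. Replicate 1 of the 24 h group had the lowest steroidogenic levels, and replicate 4 of the 4 h group had the highest interferon and macrophage levels. The array medians lay between 6.08 and 6.10 at 24 h and between 6.01 and 6.08 at 4 h (exact permutation p = 0.0159, two-sided, adjusted 0.143 over 9 quality measures). The part of these differences in the gene results was not tested.

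Between 4 h and 24 h more members fell than rose in the lists of progesterone synthesis (9 and 2 of 17), cholesterol synthesis and uptake (15 and 2 of 24) and oxidative phosphorylation (36 and 0 of 47). The progesterone list also held regulators and enzymes of other steroids, among them INSIG1, NR0B1, CYP19A1 and CYP17A1. More rose than fell in the lists of lysosome and autophagy genes (27 and 0 of 42), macrophage markers (12 and 1 of 20) and fibroblast and stroma genes (8 and 0 of 16). Among single genes, VEGFA, the main growth factor of luteal vessels, fell and HMOX1, heme oxygenase 1, rose. With limma across all arrays and Benjamini-Hochberg adjustment over all probe sets, 5570 of 24016 probe sets (23.2%) passed an adjusted p of 0.05. Of these, 2995 (12.5%) were higher and 2575 (10.7%) were lower at 24 h. Where a gene had several probe sets, the brightest stood for it, and 2799 of 9155 genes (30.6%) passed. Of these genes, 1487 (16.2%) were higher and 1312 (14.3%) lower, and the median change over all genes was 0.0089. The 5 values at 24 h did not overlap the 5 at 4 h for 3687 probe sets (15.4%) and for 1927 genes (21%), of which 1017 (11.1%) lay above and 910 (9.94%) below. A change is given as the log2 level at 24 h minus that at 4 h, with its standard error (SE). Whole glands were assayed, so fewer cells of a type and less RNA per cell cannot be told apart.

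The steepest rise was that of SLC2A5, a fructose transporter (Entrez Gene 282868). Its log2 levels were 4.13, 3.51, 5.11, 5.32 and 3.54 at 4 h and 8.84, 8.60, 7.62, 9.58 and 8.82 at 24 h. The groups were apart by 4.37 ± 0.28 (SE; limma adjusted p = 6.82e-12), although the 4 h mean was below 4.50, the level under which a size is uncertain here, and 1 other probe set of the gene differed by 0.05 and was not called, and 1 other probe set of the gene changed by 2.07 and was called. VNN1, a pantetheinase that releases cysteamine (Entrez Gene 526704), measured 6.64, 6.33, 7.44, 7.36 and 7.51 at 4 h and 11.13, 10.23, 10.97, 10.79 and 10.55 at 24 h. Every 24 h array lay above every 4 h array, with a change of 3.68 ± 0.34 (adjusted p = 3.99e-09). GATM, which makes the precursor of creatine (Entrez Gene 414732), measured 4.80, 4.80, 5.22, 4.20 and 5.71 at 4 h and 9.23, 8.41, 8.83, 8.33 and 8.17 at 24 h, a change of 3.65 ± 0.25 (adjusted p = 1.94e-11) with no overlap.

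HMOX1, heme oxygenase 1, which breaks heme down to biliverdin, iron and carbon monoxide (Entrez Gene 513221), measured 8.34, 9.14, 9.06, 9.32 and 9.58 at 4 h. At 24 h it measured 11.67, 12, 12.18, 11.98 and 11.98. The 5 arrays at 24 h were tight and all above the 4 h arrays, and the rise of 2.87 ± 0.22 corresponds to 7.32-fold (adjusted p = 1.31e-10). FABP4, a fatty acid binding protein of adipocytes, macrophages and endothelium (Entrez Gene 281759), rose from 4.74, 4.55, 6.11, 5.26 and 4.96 to 8.84, 8.26, 9.90, 8.93 and 7.99, a change of 3.66 ± 0.32 (adjusted p = 1.73e-09), and its other probe set rose by 1.16. S100A12, a calcium-binding protein of granulocytes (Entrez Gene 282467), was already 8.28 at 4 h against 5.34 at 0 h, and reached 11.30 at 24 h. Its arrays were 9.93, 8.14, 8.05, 8.02 and 7.27 at 4 h and 11.19, 11.36, 10.53, 12.15 and 11.28 at 24 h, without overlap (change 3.02 ± 0.46, adjusted p = 1.08e-05).

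The other large rises were smaller in level. HNMT, which inactivates histamine by methylation, rose by 2.83 ± 0.31 (adjusted p = 5.98e-08). NPL, which cleaves sialic acid, rose by 3.0 ± 0.20 (adjusted p = 1.85e-11) from a low signal at 4 h. PF4, a chemokine of platelets that macrophages also express, rose by 2.85 ± 0.33 (adjusted p = 1.45e-07). DEPP1, a gene induced by progestins and by FOXO factors, rose by 2.77 ± 0.21 (adjusted p = 8.49e-11). All 4 kept the groups apart, and their 0 h means of 5.21, 3.65, 4.43 and 6.43 were nearer to the 4 h than to the 24 h means.

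The steepest fall was that of NAP1L5, a member of the nucleosome assembly protein family (Entrez Gene 508508). It measured 10.40, 10.03, 10.92, 10.34 and 10.69 at 4 h and 6.02, 7.20, 6.39, 6.05 and 7.0 at 24 h. Its change was -3.94 ± 0.23 (adjusted p = 1.51e-12) with no overlap, the 0 h mean of 10.46 was close to the 4 h mean, and 1 other probe set of the gene differed by -0.18 and was not called. PTPRR, a receptor-type tyrosine phosphatase that acts on MAP kinases (Entrez Gene 536337), measured 10.17, 8.94, 10.52, 9.65 and 9.67 at 4 h and 5.95, 5.89, 6.64, 6.43 and 7.31 at 24 h, a change of -3.34 ± 0.49 (adjusted p = 6.79e-06). TNNI3, the troponin I of heart muscle, changed by -2.70 ± 0.36 (adjusted p = 1.48e-06) and also did not overlap.

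Other large falls came down from a 4 h level that lay above that of saline glands. KRT18, a keratin of epithelial cells (Entrez Gene 506480), averaged 7.27 at 0 h. It measured 11.66, 12.39, 12, 11.61 and 12.05 at 4 h and 8.14, 7.89, 9.65, 8.98 and 9.13 at 24 h. The change from 4 h to 24 h was -3.18 ± 0.29 (adjusted p = 2.38e-09), and the 24 h mean of 8.76 was still above that of saline glands. FOSB, a subunit of the AP-1 transcription factor (Entrez Gene 540819), averaged 5.31 at 0 h and measured 8.34, 9.24, 8.46, 8.24 and 8.47 at 4 h and 5.90, 5.51, 5.55, 5.30 and 5.02 at 24 h. This was a change of -3.09 ± 0.25 (adjusted p = 3.01e-10), and the 24 h mean was 5.46. F2RL1, the receptor PAR2 that proteases activate by cleavage, changed by -3.19 ± 0.44 (adjusted p = 2.86e-06) to a mean of 5.07, below its 0 h mean of 6.86. CA8, a carbonic anhydrase relative without catalytic activity, changed by -2.52 ± 0.23 (adjusted p = 2.83e-09).

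**Figure D1:**
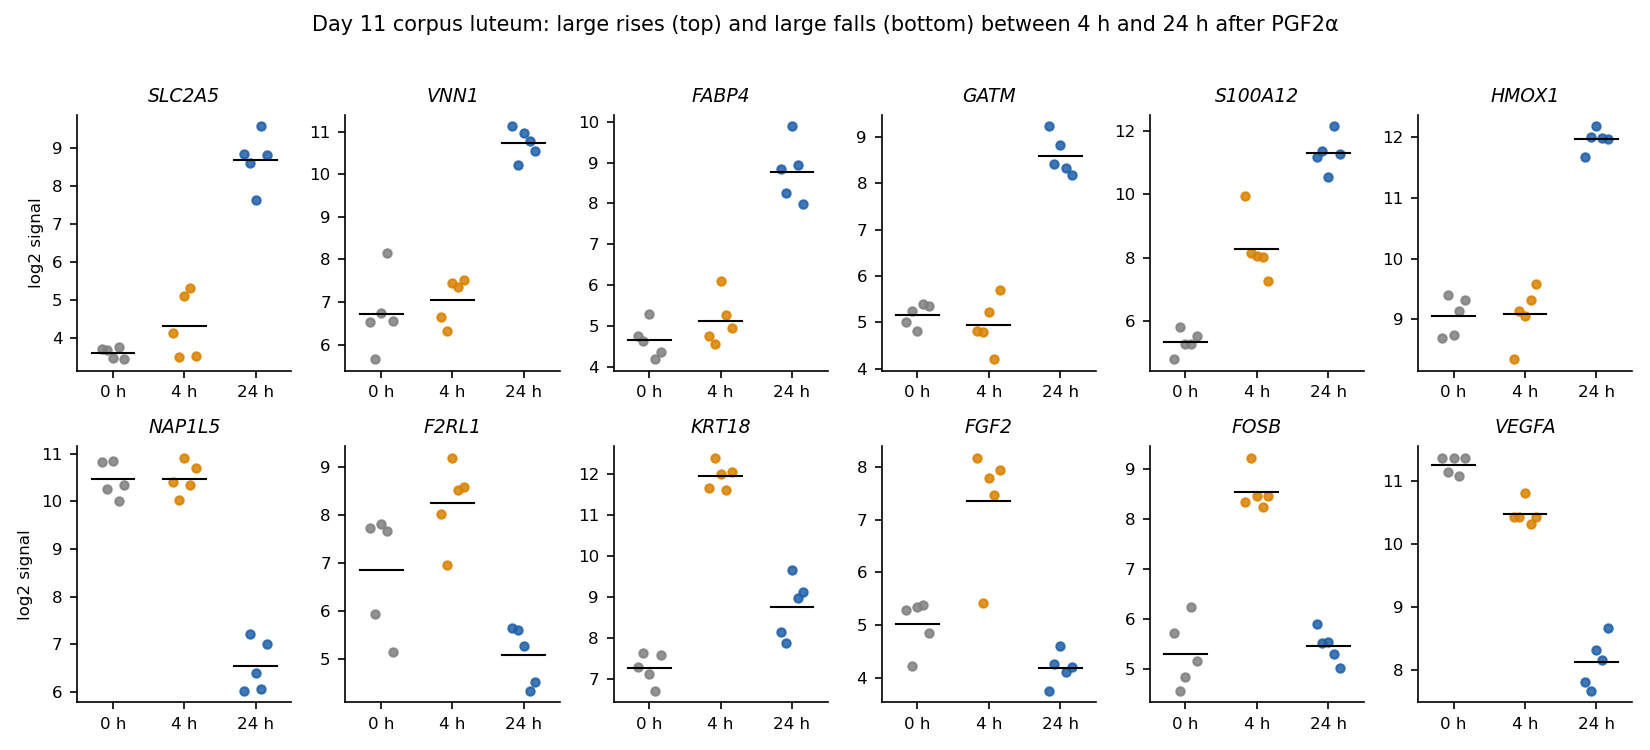
Log2 intensity (vertical axis) of 12 genes on each day 11 array at 0 h, 4 h and 24 h after PGF2α, with large rises in the top row and large falls in the bottom row; each point is 1 array and each bar the mean of 5. The 24 h points lie apart from the 4 h points for every gene shown; KRT18 and FOSB had their high values at 4 h, while NAP1L5 was as high at 4 h as in saline glands.

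STAR, CYP11A1 and HSD3B1, the transport, side-chain cleavage and dehydrogenase genes of progesterone synthesis, fell but were still bright at 24 h. Of 17 measured genes of the progesterone list, 9 were lower and 2 higher at 24 h, with a median of -0.57. These counts include regulators and enzymes of other steroids. STAR, which carries cholesterol into the mitochondrion (Entrez Gene 281507), measured 13.41, 13.41, 13.22, 13.34 and 13.36 at 4 h and 10.71, 12.53, 12.33, 12.35 and 12.82 at 24 h. The 24 h arrays were all lower, and replicate 1 was the lowest by far: the change was -1.20 ± 0.21 (adjusted p = 8.14e-05) with it and -0.84 without it. HSD3B1, which converts pregnenolone to progesterone (Entrez Gene 281824), measured 13.31, 13.50, 13.38, 13.38 and 13.41 at 4 h and 10.06, 11.92, 11.64, 11.63 and 11.71 at 24 h. Every 24 h array was below every 4 h array, and the change was -2.0 ± 0.19 (adjusted p = 5.98e-09), or -1.67 without replicate 1 of the 24 h group. CYP11A1, the side-chain cleavage enzyme (Entrez Gene 338048), measured 13.10, 13.43, 13.40, 13.33 and 13.35 at 4 h and 12.74, 12.89, 12.80, 12.72 and 12.62 at 24 h, a smaller change of -0.57 ± 0.07 (adjusted p = 4.40e-07) in which replicate 1 was not apart.

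FDX1, the ferredoxin that feeds electrons to CYP11A1, fell by 0.72 (adjusted p = 1.17e-06). NR5A2, an orphan receptor bound at promoters of steroidogenic enzymes, fell by 1.02 (adjusted p = 0.00825), and GATA6, another factor of these genes, by 0.96 (adjusted p = 2.31e-06). NR0B1, which represses NR5A receptors, fell too, by 0.94 (adjusted p = 0.000347). INSIG1, which holds the sterol sensor SCAP in the endoplasmic reticulum, fell by 2.33 ± 0.34 (adjusted p = 7.00e-06). CYP19A1, the aromatase that makes estradiol, measured 6.62, 6.34, 6.79, 6.56 and 7.03 at 4 h and 3.94, 4.48, 4.44, 4.65 and 3.65 at 24 h, a change of -2.44 ± 0.19 (adjusted p = 2.46e-10) that ended at low signal. 3 other probe sets of the gene differed by -0.04, 0.09 and 0.06 and were not called. CYP17A1, the androgen-forming enzyme of theca cells, was higher at 24 h by 1.38 ± 0.43 (adjusted p = 0.0196) with overlapping groups. That call was lost without replicate 1 or 2 of the 24 h group or replicate 4 or 5 of the 4 h group (adjusted p up to 0.075).

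In cholesterol synthesis, enzymes of early and of late steps fell. Of 24 measured genes of cholesterol synthesis and uptake, 15 were lower and 2 higher, with a median of -0.85. The summed level, as the mean log2 over the list, was 10.67 to 10.94 at 4 h and 9.55 to 10.28 at 24 h. SQLE, squalene epoxidase (Entrez Gene 526535), measured 11.97, 11.78, 12.07, 12.02 and 11.97 at 4 h and 8.94, 10.80, 9.74, 10.16 and 10.93 at 24 h. The 4 h arrays were nearly equal and the 24 h arrays were spread over a wide range below them, with a change of -1.85 ± 0.22 (adjusted p = 3.51e-07). DHCR7, which makes cholesterol from 7-dehydrocholesterol (Entrez Gene 514745), measured 11.92, 11.54, 11.88, 11.73 and 11.67 at 4 h and 8.94, 10.50, 8.99, 9.88 and 10.48 at 24 h, a change of -1.99 ± 0.22 (adjusted p = 7.78e-08). EBP and NSDHL, which act on later sterol intermediates, fell, with changes of -1.89 and -1.77 (adjusted p = 1.45e-08 and 2.20e-08), and CYP51A1, lanosterol demethylase, by 1.88 (adjusted p = 9.60e-07).

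At the start of the pathway, HMGCS1 fell by 0.96 (adjusted p = 1.20e-05) and mevalonate kinase, MVK, by 1.68 (adjusted p = 1.94e-08). SREBF2, the transcription factor of the pathway, fell by 0.73 (adjusted p = 1.99e-05). The members that rose were APOE (change 0.71, adjusted p = 0.00217), a lipoprotein that macrophages also make, and NPC2 (change 0.34, adjusted p = 0.016), which exports cholesterol from lysosomes. The median SD of the list was 0.163 at 4 h and 0.405 at 24 h, and 13 of the 24 genes had their lowest 24 h value in replicate 1. The count of members higher was 1 without replicate 4 of the 24 h group or replicate 1 or 5 of the 4 h group. The high-density lipoprotein receptor SCARB1 had a difference of -0.21 (adjusted p = 0.0757) and did not pass the test.

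**Figure D2:**
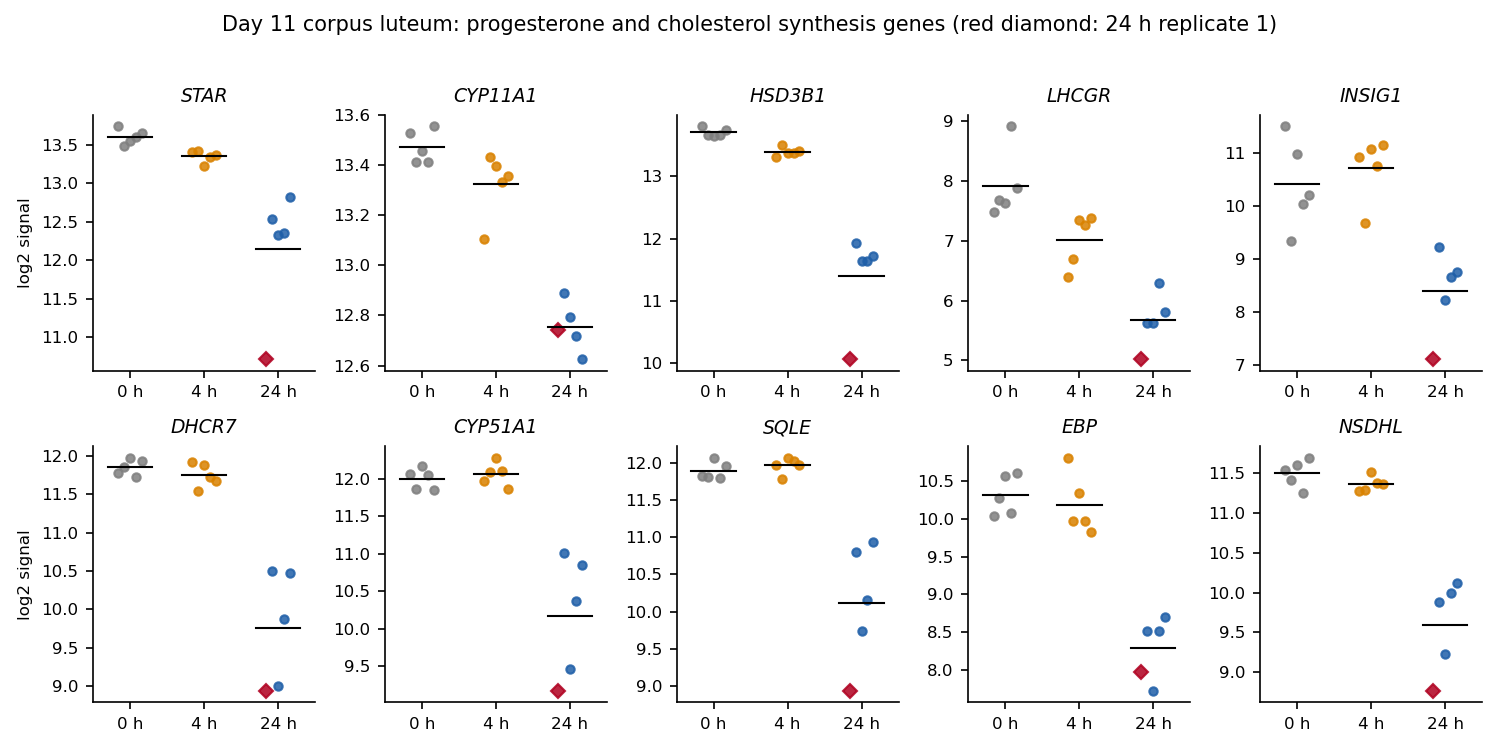
Log2 intensity (vertical axis) of LHCGR and 9 genes of progesterone and cholesterol synthesis on each day 11 array at 0 h, 4 h and 24 h after PGF2α; points are arrays, bars are means of 5, and the red diamond is replicate 1 of the 24 h group. All 24 h points lie below all 4 h points, and the diamond is the lowest 24 h point for STAR, HSD3B1 and SQLE but not for CYP11A1.

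Of the receptors for hormones that support the gland, those for luteinizing hormone and prolactin fell. LHCGR, the receptor for luteinizing hormone (Entrez Gene 281900), averaged 7.92 at 0 h and measured 6.39, 6.69, 7.34, 7.26 and 7.38 at 4 h and 5.02, 5.62, 5.62, 6.29 and 5.82 at 24 h. No 24 h array reached the lowest 4 h array, and the change was -1.34 ± 0.29 (adjusted p = 0.000758), although 1 other probe set of the gene differed by -0.16 and was not called, and 1 other probe set of the gene changed by -2.0 and was called. The prolactin receptor PRLR fell by 0.97 ± 0.17 (adjusted p = 0.000107). INHBA, the subunit of activin A (Entrez Gene 281867), was 7.39 at 0 h, 11.56, 11.81, 11.83, 11.80 and 11.78 at 4 h and 10.98, 9.89, 9.23, 9.19 and 8.84 at 24 h, a change of -2.13 ± 0.34 (adjusted p = 2.36e-05). IGFBP5, a binding protein of insulin-like growth factors (Entrez Gene 404185), measured 8.59, 8.95, 8.70, 8.49 and 8.67 at 4 h and 11.72, 11.31, 11.14, 10.60 and 11.04 at 24 h, a rise of 2.48 ± 0.30 (adjusted p = 3.02e-07). The receptor IGF1R rose by 1.14 ± 0.13 (adjusted p = 7.68e-08), although 1 other probe set of the gene differed by 0.14 and was not called, and IGFBP1 by 1.33 ± 0.35 (adjusted p = 0.00519). Of the 24 luteotropic receptors and peptides measured, 4 rose (16.7%) and 4 fell (16.7%). These shares were close to the 16.2% higher and 14.3% lower over all genes.

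Of 14 genes of prostaglandin synthesis and response, 4 fell and 1 rose. SLCO2A1, the transporter that takes prostaglandins into cells (Entrez Gene 282468), measured 7.89, 8.65, 8.63, 8.70 and 8.17 at 4 h and 6.33, 6.24, 6.21, 6.29 and 6.32 at 24 h. The 24 h arrays were almost identical, and the change of -2.13 ± 0.16 (adjusted p = 1.22e-10) took the gene below its 0 h mean of 8.02. AKR1B1, which can form PGF2α, rose by 0.68 ± 0.14 (adjusted p = 0.000559) with overlapping groups. HPGD, the prostaglandin-degrading dehydrogenase, changed by -0.90 (adjusted p = 0.00717) between low signals, and 1 other probe set of the gene differed by -0.43 and was not called. The PGF2α receptor PTGFR measured 10.44, 10.96, 11.14, 11.02 and 11.14 at 4 h and 10.64, 10.62, 10.85, 10.34 and 10.07 at 24 h. The groups overlapped, and the change of -0.44 ± 0.14 (adjusted p = 0.025) lost its call without replicate 4 or 5 of the 24 h group or replicate 3, 4 or 5 of the 4 h group (adjusted p up to 0.105). For PTGFR 1 other probe set of the gene differed by 0.20 and was not called, and 1 other probe set of the gene changed by -0.92 and was called. For PTGS2, the inducible cyclooxygenase, the change of -1.04 ± 0.35 (adjusted p = 0.0297) ended at low signal and lost its call without replicate 1 or 5 of the 24 h group or replicate 1 or 2 of the 4 h group (adjusted p up to 0.126), and 2 other probe sets of the gene differed by -0.16 and 0.08 and were not called. The count of members lower was 2 without replicate 5 of the 24 h group.

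Among secreted hormones and peptides, 4 of 16 rose and 4 fell (25.0% each, against 16.2% and 14.3% of all genes). AREG, amphiregulin, a ligand of the EGF receptor (Entrez Gene 538751), averaged 3.76 at 0 h and measured 9.21, 9.03, 9.31, 8.32 and 9.14 at 4 h and 7.21, 6.52, 6.73, 6.68 and 6.21 at 24 h. It fell by 2.33 ± 0.31 (adjusted p = 1.59e-06) but stayed well above the saline mean, and EGFR itself rose by 0.87 (adjusted p = 0.000631). PTHLH, parathyroid hormone-like hormone, went from 10.94 at 0 h to 9.02 at 4 h and 7.27 at 24 h, the last step being -1.75 ± 0.24 (adjusted p = 2.46e-06). ADM, the vasodilator adrenomedullin, measured 9.95, 9.87, 10.37, 10.46 and 10.07 at 4 h and 12.14, 12.05, 11.76, 11.53 and 11.69 at 24 h, a rise of 1.69 ± 0.25 (adjusted p = 6.50e-06). STC1, stanniocalcin 1, rose by 1.41 ± 0.23 (adjusted p = 2.62e-05). Galanin, GAL, stood at 3.97 at 0 h, 9.92 at 4 h and 10.56 at 24 h, and its change between 4 h and 24 h of 0.64 ± 0.34 did not pass (adjusted p = 0.208). Oxytocin had a difference of -0.10 ± 0.07 (adjusted p = 0.37), and endothelin 1, EDN1, one of -0.22 ± 0.30 (adjusted p = 0.688). EDN2 fell by 0.98 ± 0.24 (adjusted p = 0.00272).

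Of 21 immediate-early transcription factors, 4 fell (19.0%) and 1 rose (4.76%), against 14.3% and 16.2% of all genes. The count of those higher was 2 without replicate 5 of the 24 h group and 3 without replicate 2 of the 4 h group. Besides FOSB, the AP-1 members FOSL1 and JUND fell, with changes of -1.24 and -0.52 (adjusted p = 2.70e-05 and 0.00186), and for JUND 1 other probe set of the gene differed by -0.19 and was not called, and 1 other probe set of the gene changed by -0.68 and was called. JUN, the partner of FOS in AP-1 (Entrez Gene 280831), measured 10.86, 11.03, 10.16, 10.86 and 10.17 at 4 h and 11.65, 11.73, 11.56, 11.84 and 11.84 at 24 h, a rise of 1.10 ± 0.18 (adjusted p = 4.03e-05) without overlap, while 1 other probe set of the gene differed by -0.07 and was not called, and 3 other probe sets of the gene changed by 1.32, 1.48 and 0.76 and were called. FOS and ATF3 were high in both groups: FOS averaged 10.55 at 4 h and 10.72 at 24 h (adjusted p = 0.834), and ATF3 10.10 and 10.12 (adjusted p = 0.973), against 9.10 and 6.77 at 0 h. NR4A1, an orphan nuclear receptor, changed by -1.47 ± 0.49 (adjusted p = 0.0281), and its call was lost without replicate 2 or 5 of the 24 h group or replicate 3, 4 or 5 of the 4 h group (adjusted p up to 0.0769).

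Chemokines and cytokines had a negative change in 26 members and a positive one in 8, of up to 1.02. Of 34 measured, 13 fell and none passed as higher by limma, 3 having an unadjusted p under 0.05 in that direction. The count of those higher was 1 without replicate 1 or replicate 2 of the 4 h group, with array weights or with the replicate block. It was 3 when only the arrays of the contrast were fitted. CCL4, which attracts monocytes and T cells (Entrez Gene 414347), averaged 6.41 at 0 h and measured 10.74, 11.58, 10.38, 10.04 and 9.72 at 4 h and 8.34, 7.94, 9.15, 8.54 and 9.22 at 24 h. It fell by 1.85 ± 0.41 (adjusted p = 0.00103) and stayed above saline. CSF1, the growth factor of macrophages (Entrez Gene 281094), measured 9.73, 9.77, 9.07, 9.20 and 9.66 at 4 h and 7.30, 6.78, 7.79, 7.46 and 7.53 at 24 h, a change of -2.11 ± 0.15 (adjusted p = 3.08e-11) to about the 0 h mean of 7.32. Its other probe set differed by -0.01 and was not called. IL33, an alarmin kept in nuclei, changed by -2.01 ± 0.23 (adjusted p = 1.39e-07, 1 other probe set of the gene differed by -0.27 and was not called, and 1 other probe set of the gene changed by -1.42 and was called), IL1B by -2.20 ± 0.55 (adjusted p = 0.00332) with overlap, and TNF by -0.99 (adjusted p = 0.000111).

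CCL2, the main monocyte attractant (Entrez Gene 281043), did not fall back. It averaged 8.98 at 0 h and measured 11.90, 12.56, 11.71, 11.93 and 10.80 at 4 h and 12.52, 12.48, 12.52, 12.84 and 12.45 at 24 h. The change was 0.78 ± 0.32 (adjusted p = 0.0798), and it passed without replicate 2 of the 4 h group (0.98, adjusted p = 0.0299). It also passed when only the arrays of the contrast were fitted. CXCL8, which attracts neutrophils, measured 8.69, 9.20, 7.70, 6.03 and 7.32 at 4 h and 8.13, 7.29, 7.30, 8.43 and 7.85 at 24 h, a change of 0.01 ± 0.58 (adjusted p = 0.991) over a wide spread at 4 h. Among 25 cytokine receptors, adhesion molecules and NF-kB genes, 8 fell and 4 rose. The endothelial selectins SELE and SELP fell, with changes of -2.29 and -1.71 (adjusted p = 1.54e-06 and 0.00116), and NFKB1, a subunit of NF-kB, by 1.29 (adjusted p = 7.96e-06). CXCR4, the receptor for CXCL12, rose by 1.34 ± 0.26 (adjusted p = 0.000268), TLR2 by 0.93 (adjusted p = 0.00247) and TLR4 by 0.92 (adjusted p = 0.000704). The count of members lower in this list was 5 without replicate 1 or replicate 2 of the 4 h group.

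Of 20 macrophage markers, 12 rose and 1 fell, with a median of 0.83, and the mean over the list was 8.34 to 9.68 at 4 h and 9.65 to 10.23 at 24 h, so that the groups overlapped slightly. MSR1, a scavenger receptor (Entrez Gene 281311), measured 6.18, 6.84, 7.45, 7.47 and 6.53 at 4 h and 9.37, 9.29, 9.03, 9.66 and 9.32 at 24 h. All 24 h arrays were above all 4 h arrays, with a rise of 2.44 ± 0.25 (adjusted p = 1.95e-08). CD68, a lysosomal protein of macrophages (Entrez Gene 504960), measured 8.02, 7.98, 9.33, 9.41 and 8.05 at 4 h and 10.18, 10.38, 10.29, 10.83 and 10.27 at 24 h, a rise of 1.83 ± 0.28 (adjusted p = 1.37e-05). GPNMB, a glycoprotein of phagocytes, rose by 2.32 ± 0.34 (adjusted p = 6.64e-06), VSIG4, a complement receptor of resident macrophages, by 1.96 ± 0.35 (adjusted p = 8.51e-05), and CD14 by 1.32 (adjusted p = 0.000369). Replicate 4 of the 4 h group was the highest of its group for MSR1, CD68 and VSIG4. FCGR3A, an immunoglobulin receptor of monocytes and natural killer cells, fell by 1.24 ± 0.28 (adjusted p = 0.00141). CSF1R, the CSF1 receptor, had a difference of 0.60 (adjusted p = 0.0984), and the complement gene C1QB one of 0.21 ± 0.38 (adjusted p = 0.771).

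Of 13 neutrophil and eosinophil markers, S100A12 alone passed, and 2 were higher without replicate 1 of the 4 h group. Of 25 T, NK and B cell markers, 5 were higher and none lower by limma, where 1 had an unadjusted p under 0.05 downward. NKG7, of cytotoxic granules (Entrez Gene 513006), measured 5.29, 4.92, 6.28, 6.52 and 5.13 at 4 h and 7.81, 7.69, 7.19, 8.23 and 7.53 at 24 h, a rise of 2.06 ± 0.26 (adjusted p = 7.79e-07) without overlap, and 1 other probe set of the gene changed by 0.50 and was called. BLNK, an adaptor of B cells and macrophages, was higher by 1.71 ± 0.27 (adjusted p = 1.62e-05). The T cell genes CD3D and CD8A had changes of 0.56 and 0.79 (adjusted p = 0.0423 and 0.0314). Both lost their calls without replicate 2, 3 or 4 of the 24 h group or replicate 2 or 5 of the 4 h group, and CD3D also without replicate 3 of the 4 h group (adjusted p up to 0.162 and 0.116). Both calls were also lost with a variance per group. That of CD3D was further lost after quantile normalization, after subtracting array medians and when only the arrays of the contrast were fitted. The other probe set of CD3D differed by 0.32 and was not called. The count of lymphocyte markers higher was 11 without replicate 1 of the 24 h group, 10 without replicate 4 of the 4 h group, and 3 without replicate 2 or 4 of the 24 h group or replicate 2 or 5 of the 4 h group.

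The count of interferon-stimulated genes that were lower at 24 h rested in part on single arrays. Of 23 measured, 12 were lower and none higher by limma, where also none had an unadjusted p under 0.05, and the median was -1.0. ISG15, a ubiquitin-like protein (Entrez Gene 281871), measured 10.85, 10.85, 10, 13.24 and 11.66 at 4 h and 8.09, 8.69, 9.90, 8.23 and 9.89 at 24 h. The groups did not overlap, and the change was -2.36 ± 0.56 (adjusted p = 0.00196) with replicate 4 of the 4 h group and -1.88 (adjusted p = 0.0103) without it. RSAD2, the antiviral enzyme viperin, changed by -2.70 ± 0.53 (adjusted p = 0.000287), and by -2.24 (adjusted p = 0.00152) without that array. Without that array 5 members were lower and the median was -0.57. The count was 6 without replicate 1 and 7 without replicate 2 of the 24 h group, and 6 when the other groups' arrays did not enter the fit.

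Of 21 genes of antigen presentation, 4 fell (19.0%) and 2 rose (9.52%), against 14.3% and 16.2% of all genes. The other 15 were not called. The members that fell load or cut peptides for MHC class I: TAP1 (change -0.94, adjusted p = 0.000644), TAP2 (-0.57, 0.0266), and the immunoproteasome subunits PSMB9 (-0.89, 0.000422) and PSMB10 (-0.59, 0.000386). The members that rose serve class II in lysosomes: IFI30, a thiol reductase, by 0.79 ± 0.13 (adjusted p = 2.89e-05) and the protease CTSS by 0.73 ± 0.23 (adjusted p = 0.0195). The call of CTSS was lost without replicate 4 of the 24 h group or replicate 5 of the 4 h group (adjusted p up to 0.064), which left 1 member of the list higher. Of 28 complement and acute phase genes, 6 rose (21.4%, against 16.2% of all genes) and none fell by limma. Downward, 1 had an unadjusted p under 0.05, and 1 passed without replicate 4 of the 24 h group or replicate 2 of the 4 h group. C7, of the membrane attack complex (Entrez Gene 507339), measured 8.83, 9.47, 9.51, 9.82 and 8.16 at 4 h and 11.01, 10.86, 10.54, 11.25 and 10.87 at 24 h, a rise of 1.75 ± 0.34 (adjusted p = 0.00027). A2M, the broad protease inhibitor alpha-2-macroglobulin, rose by 0.85 ± 0.12 (adjusted p = 2.08e-06), and SERPINA14, a serpin of the ruminant uterus, by 2.18 ± 0.46 (adjusted p = 0.000604).

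**Figure D3:**
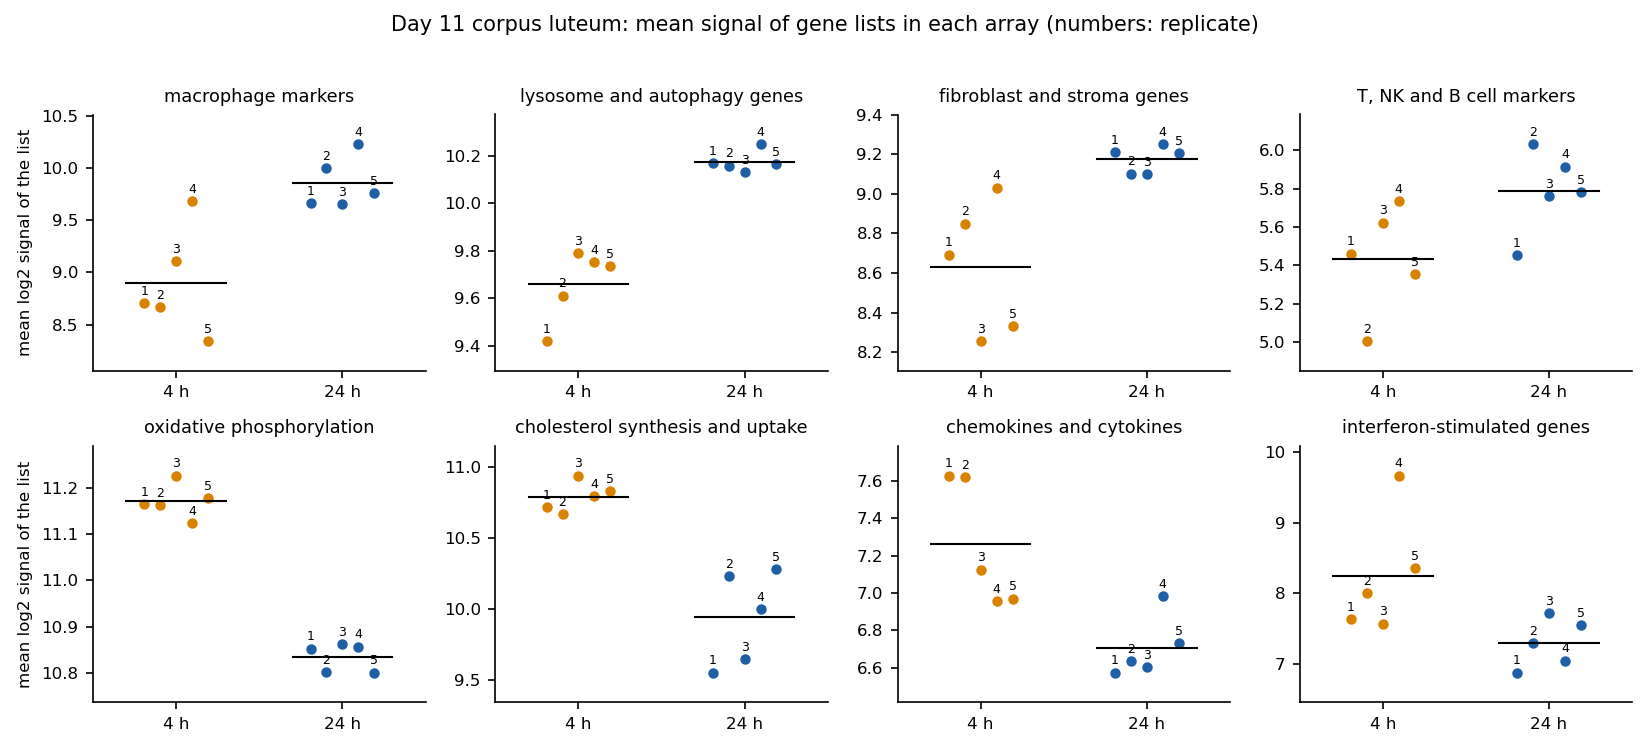
Mean log2 intensity over the measured genes of 8 lists (vertical axis) on each day 11 array at 4 h and 24 h after PGF2α; points are arrays numbered by replicate and bars are means of 5. The 24 h arrays lie apart from the 4 h arrays for the lysosome, respiration and cholesterol lists, while the macrophage and interferon lists have a wide 4 h group in which replicate 4 is highest.

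Of 37 endothelial and angiogenic genes, 11 fell (29.7%) and 5 rose (13.5%), against 14.3% and 16.2% of all genes. Those that fell included VEGFA, VEGFC and FGF2. VEGFA, the main growth factor of luteal vessels (Entrez Gene 281572), averaged 11.26 at 0 h and measured 10.42, 10.42, 10.80, 10.32 and 10.43 at 4 h and 7.81, 7.67, 8.31, 8.16 and 8.66 at 24 h. The change of -2.36 ± 0.18 (adjusted p = 1.79e-10) was present in every array, and the other probe set fell by 2.06. Its receptor FLT1 measured 9.03, 8.12, 8.31, 8.14 and 8.12 at 4 h and 6.16, 6.14, 6.18, 5.81 and 5.94 at 24 h, a change of -2.30 ± 0.18 (adjusted p = 2.46e-10), while 1 other probe set of the gene differed by -0.30 and was not called, and 1 other probe set of the gene changed by -0.91 and was called. FGF2, which is angiogenic in the gland (Entrez Gene 281161), averaged 5.02 at 0 h and measured 8.17, 5.42, 7.79, 7.46 and 7.94 at 4 h and 3.76, 4.26, 4.60, 4.11 and 4.22 at 24 h, a change of -3.17 ± 0.36 (adjusted p = 1.12e-07) to low signal, with replicate 2 low for the 4 h group. VEGFC, of lymphatic vessels, fell by 1.5 (adjusted p = 4.77e-09), and the lymphatic marker LYVE1 by 1.29 (adjusted p = 1.70e-05).

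Among endothelial genes proper, the angiopoietin receptor TEK fell by 1.03 (adjusted p = 7.08e-07), the nitric oxide synthase NOS3 by 1.25 (adjusted p = 0.000365), PECAM1 by 0.71 (adjusted p = 0.000852) and the junction protein CDH5 by 0.38 (adjusted p = 0.00435). VWF and KDR did not pass, with changes of -0.13 and 0.12 (adjusted p = 0.601 and 0.778). The tight junction gene CLDN5 rose by 0.82 (adjusted p = 0.00227) and the semaphorin and VEGF co-receptor NRP2 by 1.03 (adjusted p = 4.45e-05). Of 17 smooth muscle and pericyte genes, 5 fell (29.4%) and 2 rose (11.8%), against 14.3% and 16.2% of all genes. CNN1, calponin of smooth muscle (Entrez Gene 534583), averaged 7.09 at 0 h and measured 9.41, 9.62, 9.79, 10.14 and 9.88 at 4 h and 8.01, 7.28, 8.85, 7.86 and 7.50 at 24 h, a change of -1.87 ± 0.28 (adjusted p = 9.69e-06). MCAM, of pericytes and endothelium, fell by 0.87 (adjusted p = 0.00017). The count of members higher was 1 without replicate 1 of the 24 h group or replicate 1 or 3 of the 4 h group.

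Of 16 fibroblast and stroma genes, 8 rose and none fell by limma, where 0 had an unadjusted p under 0.05 downward, and the median was 0.49. FAP, a protease of activated fibroblasts (Entrez Gene 508882), measured 7.70, 6.67, 6.47, 7.09 and 6.36 at 4 h and 9.13, 8.85, 8.93, 8.66 and 9.37 at 24 h, a rise of 2.13 ± 0.23 (adjusted p = 6.22e-08) without overlap. S100A4 rose by 1.22 ± 0.26 (adjusted p = 0.000631). Of 36 collagens and matrix proteins, 11 rose and 1, the basement membrane linker NID1, was lower (change -0.28, adjusted p = 0.0193). No member was lower without replicate 4 of either group, and 2 were without replicate 1 of the 24 h group or replicate 2 of the 4 h group. LOXL4, a lysyl oxidase relative that cross-links collagen (Entrez Gene 281904), averaged 6.92 at 0 h and measured 7.68, 8.48, 10.68, 10.01 and 9.45 at 4 h and 11.51, 10.50, 11.77, 10.96 and 10.66 at 24 h. The rise was 1.81 ± 0.40 (adjusted p = 0.000993) with the highest 4 h array inside the 24 h range. Thrombospondin 2, THBS2, an inhibitor of angiogenesis, rose by 0.92 ± 0.14 (adjusted p = 1.52e-05), and decorin, DCN, by 0.77 ± 0.13 (adjusted p = 4.72e-05). The fibrillar collagens moved little, COL1A2 by 0.30 (adjusted p = 0.0232) and COL3A1 by 0.33 (adjusted p = 0.009), and COL1A1 did not pass (0.47, adjusted p = 0.122).

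Of 25 matrix proteases and inhibitors, 8 rose and 1 fell. MMP19, a matrix metalloproteinase (Entrez Gene 533203), measured 7.85, 7.56, 8.56, 8.80 and 7.76 at 4 h and 10.02, 9.99, 10.23, 10.42 and 10.15 at 24 h, a rise of 2.06 ± 0.17 (adjusted p = 6.19e-10), although 1 other probe set of the gene differed by -0.10 and was not called. CTSK, a collagen-cutting cathepsin (Entrez Gene 513038), measured 10.63, 10.66, 10.84, 11.15 and 10.71 at 4 h and 12.38, 11.74, 12.44, 12.41 and 12.30 at 24 h, a rise of 1.46 ± 0.11 (adjusted p = 2.10e-10). The gelatinase MMP2 and the plasminogen activator PLAT rose by 0.66 and 0.69 (adjusted p = 0.00169 and 0.000979). The inhibitor TIMP3 fell by 0.55 (adjusted p = 0.00503), and the count of members lower was 3 without replicate 1 of the 24 h group and 2 without replicate 5 of the 4 h group. TIMP1, a secreted inhibitor abundant in luteal cells, had a difference of 0.12 ± 0.07 (adjusted p = 0.245).

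Of 42 lysosome and autophagy genes, 27 rose and none fell by limma, where none had an unadjusted p under 0.05 downward, and the median was 0.42. The list mean was 9.42 to 9.79 at 4 h and 10.13 to 10.25 at 24 h, so that the groups did not overlap. CTSB, cathepsin B (Entrez Gene 281105), measured 11.36, 11.59, 11.75, 12 and 11.77 at 4 h and 12.84, 12.78, 12.87, 13.11 and 12.92 at 24 h, a rise of 1.21 ± 0.13 (adjusted p = 4.22e-08) with all 5 other probe sets of the gene also higher. CTSZ rose by 1.32 ± 0.19 (adjusted p = 5.26e-06), cathepsin D, CTSD, by 0.84 (adjusted p = 2.09e-07) and the lysosomal lipase LIPA by 0.90 (adjusted p = 0.000797). Of autophagy genes, WIPI1, which binds the forming autophagosome, rose by 1.06 ± 0.12 (adjusted p = 5.67e-08) and the cargo receptor SQSTM1 by 0.99 (adjusted p = 7.54e-06). Cathepsins and scavenger genes are also abundant in macrophages, whose list mean was also higher at 24 h, and the part of those cells in the lysosome result was not tested.

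Of 47 oxidative phosphorylation genes, 36 fell and none rose by limma, where none had an unadjusted p under 0.05 upward, and the median was -0.31. The list mean was 11.12 to 11.23 at 4 h and 10.80 to 10.86 at 24 h. Complex I had 18 of 23 genes lower, complex II 1 of 4, complex III 5 of 6, complex IV 7 of 8 and ATP synthase 5 of 6. NDUFS7, a core subunit of complex I (Entrez Gene 338079), measured 10.42, 10.42, 10.59, 10.16 and 10.56 at 4 h and 9.59, 9.60, 9.46, 9.66 and 9.48 at 24 h, a change of -0.87 ± 0.09 (adjusted p = 1.09e-08). CYC1, cytochrome c1 of complex III (Entrez Gene 512500), measured 11.43, 11.31, 11.40, 11.35 and 11.26 at 4 h and 10.79, 10.73, 10.72, 10.72 and 10.66 at 24 h, a change of -0.63 ± 0.06 (adjusted p = 2.37e-08) between tight groups. Of 34 genes of the TCA cycle and fatty acid oxidation, 14 fell and 2 rose. PDHB, of pyruvate dehydrogenase, fell by 0.72 (adjusted p = 9.81e-06), although 2 other probe sets of the gene differed by -0.14 and -0.12 and were not called. In contrast, CPT1B, which admits fatty acids to mitochondria, rose by 1.40 ± 0.22 (adjusted p = 1.34e-05) and the NADPH-forming IDH2 by 0.78 ± 0.11 (adjusted p = 6.50e-06).

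Of 22 lipid droplet and lipase genes, 11 fell (50.0%) and 3 rose (13.6%), against 14.3% and 16.2% of all genes. Without replicate 2 of the 24 h group 5 rose. Genes that make fatty acids and triglyceride were among those that fell: ELOVL6, an elongase, by 1.96 ± 0.18 (adjusted p = 2.78e-09), the desaturase SCD by 1.36 ± 0.11 (adjusted p = 8.10e-10), DGAT2 by 1.36 (adjusted p = 8.46e-09) and FASN by 0.92 (adjusted p = 3.09e-05). The 3 that rose take up and carry fatty acids. CD36, a fatty acid and scavenger receptor (Entrez Gene 281052), measured 8.53, 9.33, 9.14, 9.42 and 9.95 at 4 h and 11.19, 11, 11.27, 11.22 and 11.37 at 24 h, a rise of 1.93 ± 0.34 (adjusted p = 9.00e-05). FABP5 rose by 1.71 ± 0.25 (adjusted p = 7.28e-06) and FABP4 as above. Lipoprotein lipase, LPL, fell by 1.0 ± 0.25 (adjusted p = 0.00291), and the droplet coat gene PLIN2 had a difference of -0.02 (adjusted p = 0.952).

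Of 33 antioxidant, heme and metal genes, 11 rose and 7 fell, and 7 rose when only the arrays of the contrast were fitted. FTL, the ferritin light chain (Entrez Gene 286861), measured 12.02, 11.80, 11.98, 12.13 and 11.80 at 4 h and 12.91, 12.99, 12.99, 13 and 13.06 at 24 h, a rise of 1.04 ± 0.08 (adjusted p = 1.81e-10). SLC11A1, an iron and manganese transporter of phagosomes, rose by 1.47 ± 0.23 (adjusted p = 1.32e-05). GSTA2, a glutathione transferase abundant in steroidogenic cells (Entrez Gene 281805), measured 13.85, 13.77, 13.50, 13.14 and 13.73 at 4 h and 11, 12.88, 12.49, 12.81 and 12.67 at 24 h, a change of -1.23 ± 0.23 (adjusted p = 0.000189). Without replicate 1 of the 24 h group it was -0.88. A further probe set of the gene differed by -0.47 and was not called, while the others changed by -1.36, -1.39 and -1.22 and were called. The mitochondrial peroxiredoxins PRDX3 and PRDX5 fell, with changes of -0.61 and -0.48 (adjusted p = 1.11e-05 and 0.000116), and the lipid peroxide reductase GPX4 by 0.51 (adjusted p = 8.10e-05).

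Hypoxia and glycolysis genes moved both ways, 10 of 32 up (31.2%) and 5 down (15.6%), against 16.2% and 14.3% of all genes. ENO2, an enolase (Entrez Gene 526006), measured 4.28, 4.37, 4.34, 4.30 and 4.23 at 4 h and 7.01, 6.34, 6.20, 5.25 and 6.08 at 24 h, a rise of 1.87 ± 0.19 (adjusted p = 2.07e-08) from low signal. BNIP3, a mitophagy receptor, rose by 1.31 ± 0.14 (adjusted p = 2.53e-08, 1 other probe set of the gene differed by 0.06 and was not called, and 1 other probe set of the gene changed by 1.33 and was called), lactate dehydrogenase LDHA by 1.01 (adjusted p = 4.72e-05) and PFKFB3, which drives glycolysis, by 1.22 ± 0.23 (adjusted p = 0.000138). 2 other probe sets of the gene differed by 0.20 and 0.0 and were not called. DDIT4, an inhibitor of mTORC1, fell by 1.33 ± 0.26 (adjusted p = 0.000268), and the glucose transporter SLC2A1 by 0.88 (adjusted p = 1.21e-05), so that VEGFA, DDIT4 and SLC2A1, all known hypoxia targets, were lower while ADM and BNIP3 were higher.

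Cell death genes did not move one way: of 28, 6 rose (21.4%) and 7 fell (25.0%), against 16.2% and 14.3% of all genes. When only the arrays of the contrast were fitted, 3 rose. CFLAR, an inhibitor of caspase 8 (Entrez Gene 497199), averaged 7.49 at 0 h and measured 9.56, 9.32, 9.81, 9.63 and 9.79 at 4 h and 8.13, 8.20, 8.13, 8.45 and 8.25 at 24 h, a change of -1.39 ± 0.18 (adjusted p = 9.29e-07). The inhibitor of apoptosis BIRC3 fell by 1.45 ± 0.29 (adjusted p = 0.000406) and MCL1 by 0.37 (adjusted p = 0.0022). GADD45A, a DNA damage response gene, rose by 1.60 ± 0.19 (adjusted p = 3.26e-07) from low signal, the mitochondrial pore former BAX by 0.63 (adjusted p = 2.03e-05) and the death receptor FAS by 0.58 (adjusted p = 0.00956). Of 35 chaperone and stress genes, 9 fell and 3 rose, or 1 rose without replicate 2 of the 24 h group, without replicate 4 of the 4 h group or when only the arrays of the contrast were fitted: the mitochondrial chaperonin HSPE1 fell by 0.74 ± 0.07 (adjusted p = 3.21e-09) and the endoplasmic reticulum factor MANF by 0.75 ± 0.12 (adjusted p = 2.51e-05), while DDIT3, the stress factor CHOP, rose by 0.69 ± 0.17 (adjusted p = 0.00287).

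Of 33 proteasome and ubiquitin genes, 10 fell and 2 rose. The count of those higher was 4 without replicate 2 of the 24 h group, without replicate 2 of the 4 h group or with the replicate block. It was 5 after quantile normalization, without the dimmest probe sets, with a robust intensity trend or with the mean of a gene's probe sets, and 5 were lower when only the arrays of the contrast were fitted. PSME1 and PSME2, the interferon-inducible activator subunits, fell, with changes of -0.59 and -0.64 (adjusted p = 7.70e-05 and 8.17e-05), whereas FBXO32, the ubiquitin ligase atrogin-1 of muscle wasting (Entrez Gene 513776), averaged 6.75 at 0 h and measured 8.21, 9.10, 8.71, 8.81 and 9.02 at 4 h and 11.15, 10.63, 10.63, 10.84 and 10.59 at 24 h. Its rise was 2.0 ± 0.35 (adjusted p = 6.45e-05), and the other probe set rose by 2.10. Of 27 TGF-beta and activin genes, 5 fell (18.5%) and 4 rose (14.8%), close to the 14.3% and 16.2% of all genes. With the mean of a gene's probe sets, 3 fell. ID1, a BMP target, fell by 1.37 ± 0.18 (adjusted p = 1.60e-06, 1 other probe set of the gene differed by -0.14 and was not called) and FSTL3, which binds activin, by 1.09 ± 0.18 (adjusted p = 3.39e-05). TGFBI, a matrix protein induced by TGF-beta, rose by 1.13 ± 0.23 (adjusted p = 0.00038).

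None of 61 cytosolic ribosomal protein genes passed by limma, where 1 had an unadjusted p under 0.05. Of 37 genes of ribosome biogenesis, 9 fell and 1 rose, with changes of at most 0.54 in size among those that fell. Of 40 cell cycle genes, 6 rose and 2 fell, both shares below the 16.2% higher and 14.3% lower over all genes. MCM7, of the replicative helicase (Entrez Gene 539924), measured 7.86, 8.26, 8.25, 8.02 and 8.20 at 4 h and 9.19, 9.32, 9.08, 9.26 and 9.10 at 24 h, a rise of 1.07 ± 0.23 (adjusted p = 0.000628), and cyclin D1, CCND1, fell by 1.17 ± 0.16 (adjusted p = 2.42e-06). The count of cell cycle genes higher was 2 without replicate 1 of the 4 h group or replicate 3 of the 24 h group, and 3 without replicate 2, 4 or 5 of the 24 h group or replicate 4 or 5 of the 4 h group.

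Markers of other cell types that a dissected gland could hold were measured on the same arrays. Of 11 theca and granulosa genes, 3 rose (GATM, CYP17A1 and FSHR) and 1 fell, or 2 without replicate 4 of the 4 h group. FSHR, the follicle-stimulating hormone receptor, was at low signal in both groups. Of 17 epithelial and junction genes, 3 rose (17.6%, against 16.2% of all genes). KRT18 alone fell (5.88%, against 14.3%), and 2 fell without replicate 3 of the 24 h group or replicate 1 or 4 of the 4 h group. CDH2, the N-cadherin of granulosa and luteal cells (Entrez Gene 281062), measured 9.01, 8.38, 9.07, 8.74 and 9.02 at 4 h and 11.14, 10.91, 11.04, 10.31 and 10.62 at 24 h, a rise of 1.96 ± 0.23 (adjusted p = 2.12e-07), and the galectin LGALS3, also of macrophages, rose by 1.5 ± 0.14 (adjusted p = 3.65e-09). Of 11 erythrocyte and platelet genes, 1 passed, PF4 (9.09% higher, against 16.2% of all genes), and 6 were at low signal in both groups. Of 8 adipocyte genes, FABP4 rose and LPL fell (12.5% each, against 16.2% and 14.3% of all genes), and 5 were at low signal in both groups.

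**Figure D4:**
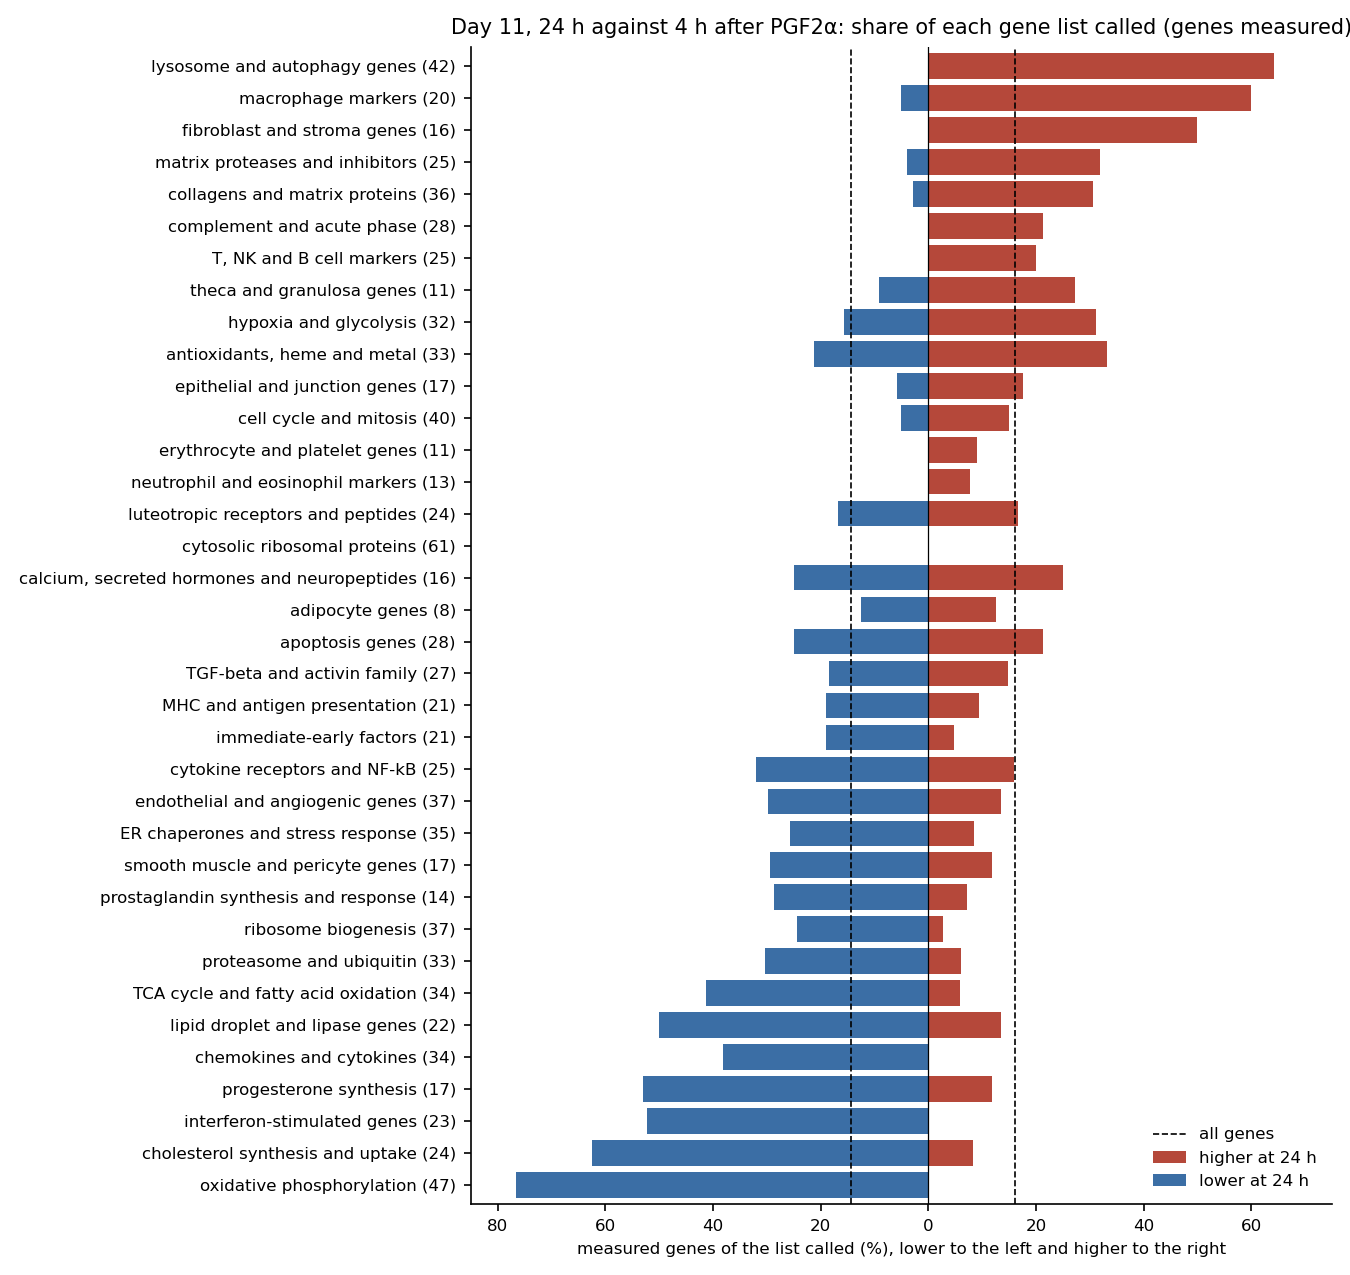
Percent of the measured genes of each list called higher (to the right) or lower (to the left) at 24 h than at 4 h on day 11, with the number of measured genes after each name and dashed lines at the 16.2% and 14.3% over all 9155 genes. Lysosome and macrophage lists reach far to the right, respiration, cholesterol, progesterone and interferon lists far to the left, and the ribosomal protein list has none.

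The same step on day 4, from 4 h to 24 h, used other arrays. There 3580 probe sets (14.9%) passed, 1841 (7.67%) higher and 1739 (7.24%) lower, or 1834 genes (20%), 933 (10.2%) higher and 901 (9.84%) lower. The difference between the day 11 and the day 4 step passed for 4224 probe sets (17.6%), with the more positive step on day 11 for 2172 (9.04%) and the more negative for 2052 (8.54%). It passed for 2203 genes (24.1%), 1140 (12.5%) more positive and 1063 (11.6%) more negative. Across 9155 genes the day 11 and day 4 changes had a Pearson correlation of 0.08, a description over genes that are not independent. Of the 1487 genes higher at 24 h on day 11, 234 were also higher and 93 lower on day 4, and 759 (51%) differed between the days. Of the 1312 lower genes, 218 were also lower and 197 higher on day 4, and 755 (57.5%) differed. On day 4, replicate 1 of the 24 h group correlated more with the saline arrays of that day (mean centred correlation 0.63) than with its own group (0.33), as did replicate 5 (0.54 and 0.41). Without replicate 1 the difference passed for 4348 probe sets.

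Among the genes with the more negative step on day 11 were several that fell on day 11 and rose on day 4. PTPRR changed by -3.34 on day 11 and 1.99 on day 4, a difference of -5.33 ± 0.70 (adjusted p = 2.56e-06). TNNI3 changed by -2.70 and 1.62 (difference -4.32, adjusted p = 5.15e-07), and BBOX1, the last enzyme of carnitine synthesis, by -2.0 and 1.74 (difference -3.74, adjusted p = 4.16e-09). PTHLH fell by 1.75 on day 11 and rose by 1.86 on day 4 (difference -3.61, adjusted p = 2.43e-08). LHCGR also moved in opposite directions, with 1.55 on day 4 (difference -2.89 ± 0.41, adjusted p = 7.15e-06), although its probe set of low signal had a difference of -0.04 (adjusted p = 0.933). PTGFR rose by 0.92 on day 4 (difference -1.36, adjusted p = 1.52e-05), but its fall on day 11 lost its call when any 1 of the 5 arrays named above was left out. Of its other probe sets, one had a difference between the days of -1.89 (adjusted p = 0.000181) and one of -0.68 (adjusted p = 0.143, not called).

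Among the genes with the more positive step on day 11 were chemokines that fell on day 4. CCL2 changed by -3.11 (adjusted p = 1.15e-07) on day 4 and stood at 0.78 on day 11, a difference of 3.89 ± 0.45 (adjusted p = 4.54e-07). CXCL8 changed by -3.52 (adjusted p = 0.000112) on day 4 and stood at 0.01 on day 11, a difference of 3.54 ± 0.83 (adjusted p = 0.00265). S100A12 fell by 1.5 on day 4 and rose by 3.02 on day 11 (difference 4.51, adjusted p = 9.81e-06). SLC2A5, FABP4, PF4 and DEPP1, which rose on day 11, had day 4 changes of 0.33, -0.66, -0.78 and -1.04, and their differences were 4.04, 4.32, 3.63 and 3.81 (adjusted p = 3.93e-08, 1.07e-07, 1.76e-06 and 7.43e-10). CXCL2 had the largest difference of this sign, 4.74 ± 1.17 (adjusted p = 0.00422), with day 11 values from 3.13 to 8.70 at 4 h and from 4.51 to 8.27 at 24 h.

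By list, the day 11 step was more negative than that of day 4 for 16 of 24 cholesterol genes, 10 of 17 genes of the progesterone list, 39 of 47 respiration genes and 17 of 34 genes of the TCA cycle and fatty acid oxidation. On day 4 itself, 6 of the cholesterol genes, 6 of the respiration genes and 13 of the TCA cycle and fatty acid oxidation genes rose. So did 10 of the 42 lysosome genes, and over all genes 10.2% rose on day 4. STAR differed by -1.58 ± 0.30 (adjusted p = 0.000339), HSD3B1 by -2.33 ± 0.27 (adjusted p = 3.95e-07) and CYP11A1 by -0.89 ± 0.10 (adjusted p = 2.09e-07). VEGFA and KRT18 also had the more negative step on day 11, by -2.44 ± 0.26 and -2.26 ± 0.40 (adjusted p = 1.07e-07 and 0.000159). The day 11 step was more positive for 25 of 40 cell cycle genes (on day 4, 26 of the 40 fell), for 10 of 25 cytokine receptor and NF-kB genes, for 9 of 20 macrophage markers and for 12 of 42 lysosome genes. The day 4 fall of the cell cycle genes was uneven between arrays. Their list mean on day 4 was 8.47 to 8.83 at 4 h. At 24 h it was 8.82, 7.36, 7.88, 6.60 and 8.33 in replicates 1 to 5, and replicate 1 lay within the 4 h range.

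For the following genes the difference between the days did not pass at the brightest probe set. FGF2 fell on both days, with changes of -3.17 and -4.05 (difference 0.89 ± 0.51, adjusted p = 0.266). The difference passed at its other probe set, at 2.06 (adjusted p = 0.00199), and also when both probe sets were averaged (adjusted p = 0.0143). INHBA fell on both days, with changes of -2.13 and -1.55 (difference -0.58 ± 0.48, adjusted p = 0.495). For GAL and OXT the differences between the days were 0.40 ± 0.49 and -0.13 ± 0.10 (adjusted p = 0.669 and 0.455). FOS, ATF3 and NR4A1 had differences of 0.94 ± 0.59, 0.97 ± 0.43 and -0.44 ± 0.69 (adjusted p = 0.322, 0.128 and 0.752; for ATF3 0.0233 without replicate 4 of the day 4, 4 h group), and for C1QB it was -0.11 ± 0.53 (adjusted p = 0.931).

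**Figure D5:**
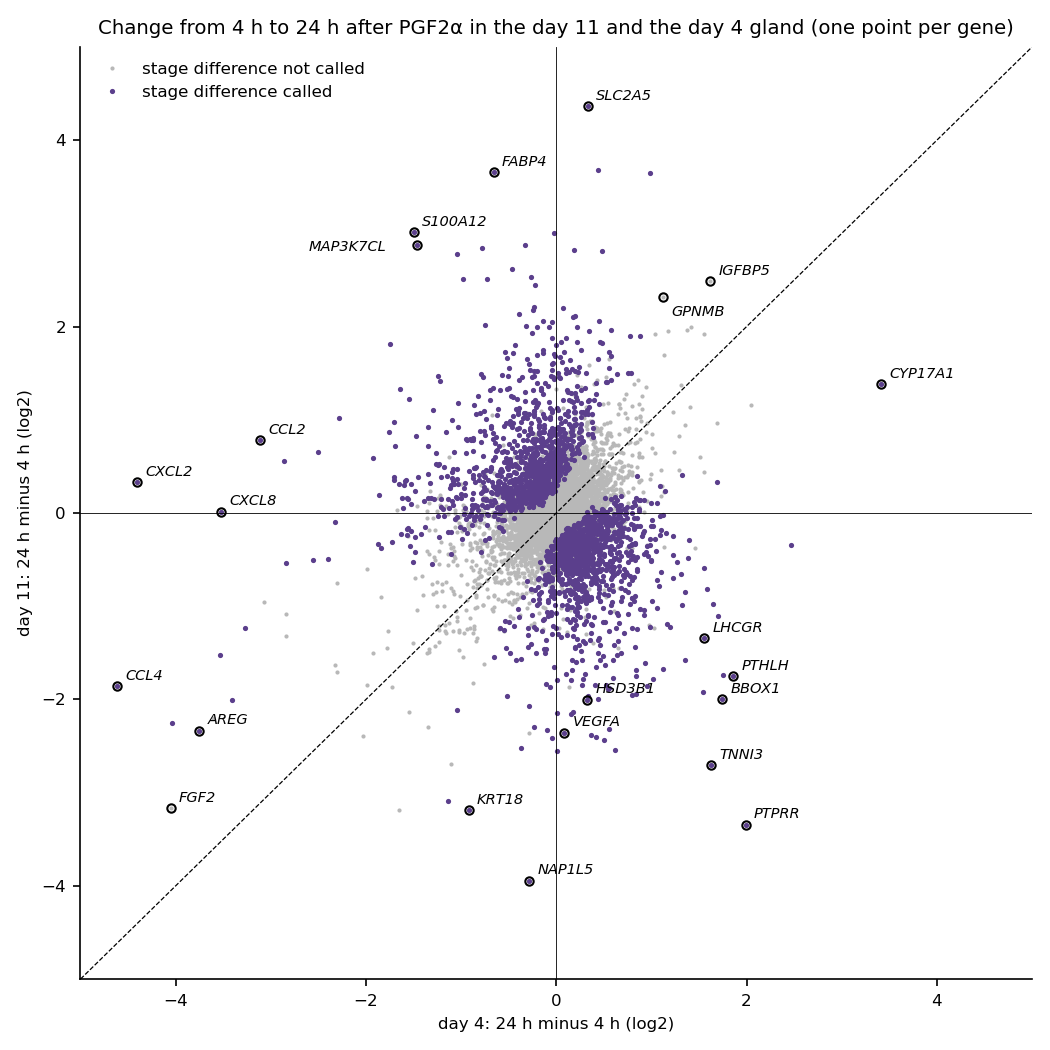
Change from 4 h to 24 h after PGF2α on day 4 (horizontal axis, log2) against the same change on day 11 (vertical axis, log2); each point is 1 of 9155 genes, purple where the changes differed at an adjusted p of 0.05 and grey otherwise, and the dashed line marks equal changes. PTPRR, TNNI3 and PTHLH lie at the lower right, fallen on day 11 and risen on day 4, and S100A12 lies at the upper left; over all genes the correlation was 0.08.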

How the data were processed

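RNA of 30 corpus luteum samples was hybridised to 1-colour Affymetrix bovine arrays. The authors deposited log2 intensities summarised with RMA, per the submitters' processing notes, and its version is not given in the sources used here. RMA equalises the arrays' distributions, so a shift shared by most transcripts is removed from the deposited values. Of 24128 probe sets, 112 controls were left out of the tests. Platform annotation gave 13292 probe sets 1 symbol, 86 several and 10638 none, which made 9155 genes, of which 2913 had several probe sets and were represented by the brightest.

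Group means of all 6 groups were fitted with limma 3.58.1 (R 4.3.3), with 24 residual and 28.21 moderated degrees of freedom, and p-values were adjusted over 24016 probe sets by the Benjamini-Hochberg method. Calls are at an adjusted p under 0.05. Signals under 4.50 on the log2 scale, the 30th percentile of probe set means, were called low. Quality measures were compared by exact permutation tests (SciPy 1.17.1, Python 3.11.15), which cannot give a p below 0.00794 with 5 against 5. The number of arrays limits the precision. Figures were drawn with matplotlib 3.10.9.

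The genes were chosen from 36 lists with 954 measured entries of 1207 (926 distinct genes, since lists share members), the 12 largest rises and falls without overlap, up to 5 called members of each list (2 where none was called), the 8 largest differences between the days in each direction, and a panel of 21 genes. Other list members are named where they complete a list, and were chosen after their values were seen. The genes and lists were chosen with earlier results of these data known. The test was also run on simulated data, drawn as independent normal values with 1 SD per probe set for all arrays. For each size, 200 of 24016 probe sets were changed in the day 11, 24 h group. The test recovered 63% of changes of 0.5, 97.5% of changes of 1 and 99.5% of changes of 2 on the log2 scale. Of its calls, 5.28% were false. In the real data 23.2% of probe sets were called, and the median SD was 0.216 at 4 h and 0.171 at 24 h. The rates therefore describe the simulated setting and may not hold for these arrays. Alternatives in normalization, filtering, weights, variance model, pairing and arrays left out were tried. No scan dates were used.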

Additional observations from a re-analysis of the deposited data

Results flagged for a closer look

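Among 290 sets of 5 arrays checked for the named genes, list means and quality measures, 21 had an array whose gap to its neighbour took more of the range than Dixon's limit for 5 samples allows, where chance gives about 1 in 20 (7.24% here). Log2 levels follow. Replicate 1 of the 24 h group was the lowest of its group for GSTA2 at 11.00 (others 12.49 to 12.88), HSD3B1 at 10.06 (others 11.63 to 11.92), STAR at 10.71 (others 12.33 to 12.82) and TNNI3 at 5.19 (others 6.26 to 6.58). Replicate 2 of the 24 h group was the lowest of its group for CTSK at 11.74 (others 12.30 to 12.44). Replicate 4 of the 24 h group was the highest of its group for CCL2 at 12.84 (others 12.45 to 12.52) and VSIG4 at 9.54 (others 8.74 to 8.93). Replicate 1 of the 4 h group was the lowest of its group for INHBA at 11.56 (others 11.78 to 11.83), PTGFR at 10.44 (others 10.96 to 11.14) and TNNI3 at 7.85 (others 8.99 to 9.30) and the highest of its group for FLT1 at 9.03 (others 8.12 to 8.31). Replicate 2 of the 4 h group was the lowest of its group for FGF2 at 5.42 (others 7.46 to 8.17), GPNMB at 8.78 (others 9.72 to 10.05) and INSIG1 at 9.68 (others 10.76 to 11.15) and the highest of its group for FOSB at 9.24 (others 8.24 to 8.47). Replicate 3 of the 4 h group was the highest of its group for VEGFA at 10.80 (others 10.32 to 10.43). Replicate 4 of the 4 h group was the lowest of its group for AREG at 8.32 (others 9.03 to 9.31) and the highest of its group for PSME2 at 11.17 (others 10.64 to 10.79). Replicate 1 of the 4 h group also stood apart in quality, with an array median of 6.01, an EF1A 3′ to 5′ difference of -1.40 and an eIF-4E difference of 4.47.

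The change from 4 h to 24 h differed between day 11 and day 4 for 4224 probe sets by limma's test of the difference at an adjusted p of 0.05. With the day 4 change subtracted from that of day 11, the most negative log2 differences were -5.33 for PTPRR (adjusted p = 2.56e-06), -4.32 for TNNI3 (adjusted p = 5.15e-07), -3.74 for BBOX1 (adjusted p = 4.16e-09) and -3.66 for NAP1L5 (adjusted p = 1.37e-08). Smaller in size were -3.61 for PTHLH (adjusted p = 2.43e-08), -3.50 for TNNT1 (adjusted p = 3.69e-05), -3.46 for SERPINA3-7 (adjusted p = 2.11e-06) and -3.17 for TC2N (adjusted p = 4.49e-09). Smaller in size were -2.89 for LHCGR (adjusted p = 7.15e-06), -2.44 for VEGFA (adjusted p = 1.07e-07), -2.33 for HSD3B1 (adjusted p = 3.95e-07) and -2.26 for KRT18 (adjusted p = 0.000159). Smaller in size were -1.58 for STAR (adjusted p = 0.000339), -1.36 for PTGFR (adjusted p = 1.52e-05) and -0.89 for CYP11A1 (adjusted p = 2.09e-07). The most positive were 4.74 for CXCL2 (adjusted p = 0.00422), 4.51 for S100A12 (adjusted p = 9.81e-06), 4.34 for MAP3K7CL (adjusted p = 4.49e-09) and 4.32 for FABP4 (adjusted p = 1.07e-07). Smaller in size were 4.04 for SLC2A5 (adjusted p = 3.93e-08), 3.89 for CCL2 (adjusted p = 4.54e-07), 3.81 for DEPP1 (adjusted p = 7.43e-10) and 3.63 for PF4 (adjusted p = 1.76e-06). Smaller in size were 3.54 for CXCL8 (adjusted p = 0.00265), 1.42 for AREG (adjusted p = 0.0235) and 1.41 for EDN1 (adjusted p = 0.0212). The call of AREG was lost with array weights and without replicate 1 of the day 11, 24 h group, replicate 4 of the day 11, 4 h group or replicate 4 of the day 4, 24 h group.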

How the results depend on the processing

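The 5570 probe sets called for the day 11 step became 4992 to 5417 when an array of day 11, 4 h or 24 h was left out, 5199 without replicate 1 of the 4 h group, 4776 with a variance per group, 4350 when only the arrays of the contrast were fitted, 3715 at an adjusted p under 0.01 and 980 with a minimum change of 2-fold. Subtracting array medians changed the share of higher calls from 53.8% to 47.5%. For the day 4 step, 3580 calls became 2598 to 3901 without an array, 1934 at 0.01 and 538 with a 2-fold minimum, of which 28.3% were higher against 51.4% in all. For the difference between the days, 4224 calls became 3701 to 4348 without an array, 2578 at 0.01 and 1397 with a 2-fold minimum. The share of probe sets with the larger SD at 24 h was 35.3%, 33.7% without the dimmest 30%, 36.1% after quantile normalization and 29.0% to 45.4% without an array; it was 45.4% without replicate 1 of the 4 h group, 40.1% without its replicate 4 and 29.0% without replicate 1 of the 24 h group. The cause was not tested.

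Of 5213 values of the named genes under alternatives, 5021 kept their side of the threshold, 185 (in 64 results) lost the call and 7 (in 4 results) gained it. No called value reversed its direction. Among values not called, a change of sign was counted as kept. The day 11 step of CXCL2, for example, ran from -0.31 to 1.08. The replicate numbers were not taken as pairs in the main fit. Deviations of same-numbered 4 h and 24 h arrays correlated at 0.16, 0.01, 0.10, 0.06 and 0.10, and 2 of 5 correlated best with their own number. So few values cannot decide whether the numbers mark pairs or a shared batch. With the replicate block, 5827 probe sets were called for the day 11 step, 3848 for the day 4 step and 4421 for the difference. Without it these were 5570, 3580 and 4224. A planned search of promoters for motifs was not run, since no promoter sequences were used here. Low signals limit the sizes of changes: 1303 of 9155 genes were low in both groups.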
